A study of Mus musculus with 12 samples.

Results

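The interferon regulatory factors (IRFs) are a family of transcription factors, and 8 of their genes are described here in mouse cells labelled as CD4 T cell populations: Irf1, Irf2, Irf3, Irf4, Irf5, Irf7, Irf8 and Irf9. They were found by name: every probe set whose array annotation gives 1 of these symbols as its single gene was taken, which left 14 of the 45037 probe sets in the deposited table. Irf3 had 4 probe sets, Irf4, Irf5 and Irf8 had 2 each, and Irf1, Irf2, Irf7 and Irf9 had 1 each. All 14 passed the filter on dim probe sets, which kept 27022.

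The study measured total RNA of 4 labelled cell types on 12 Affymetrix Mouse430_2 arrays with 3 arrays for each type. All came from mice of the strain background C57BL/10.RIII, and the labels give no age, sex, dose or time. The group iFoxA1Treg was labelled as FoxA1 regulatory T cells induced by IFN-beta, with the markers CD4hi,PD-L1hi. The group nFoxA1Treg was titled as induced by neurons but called natural in its cell type field, with the same CD4hi,PD-L1hi markers. The group Treg was labelled as regulatory T cells with the markers CD4+,TGFbeta+, and the group EncT as encephalitogenic T cells, cells that cause inflammation of the brain, with the marker CD4+. The labels do not say that the 3 arrays of a group hold different mice or cultures, and the p-values therefore cover the spread between these arrays, which may be technical.

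IRFs share a DNA-binding domain that reads the interferon-stimulated response element (ISRE). IRF3 and IRF7 switch on type I interferon genes after a cell senses viral nucleic acid, and IRF5 acts downstream of Toll-like receptors. Type I interferon then signals through its receptor to a complex that contains IRF9, while interferon gamma acts on the gamma-activated site (GAS), a sequence known in the Irf1 promoter. IRF1 drives antigen-processing genes, IRF2 competes with it for the same sites, IRF4 is induced through the T cell receptor and partners with BATF in T cells, and IRF8 partners with PU.1 in myeloid and B cells.

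The arrays labelled iFoxA1Treg stood apart and went against their label. Their Cd4 probe set averaged 4.24 ± 0.10, against 10.44 ± 0.068 in nFoxA1Treg, 10.39 ± 0.057 in Treg and 10.57 ± 0.017 in EncT (normalized log2, SD, n = 3 each). Summed over 7 B cell markers, their linear values ran from 20869 to 22796, against 118 to 152 in nFoxA1Treg, 136 to 164 in Treg and 135 to 203 in EncT. Over 9 macrophage and monocyte markers they ran from 15299 to 15682, against 107 to 151 in nFoxA1Treg, 155 to 165 in Treg and 284 to 357 in EncT, and the sums of 10 T cell markers ran from 6030 to 6274, against 19147 to 21774 over the other groups. Xist, which female cells express from an inactive X chromosome, averaged 2.11 on the arrays labelled iFoxA1Treg and 11.07 to 11.52 in the other groups. The Y-linked gene Eif2s3y averaged above the filter level of 4.05 on the arrays labelled iFoxA1Treg and below it in the other groups. Kdm5d, also Y-linked, averaged below that level in all groups. Sex can thus not be told apart from group for the arrays labelled iFoxA1Treg either. Results are therefore given first among nFoxA1Treg, Treg and EncT, and then for the arrays labelled iFoxA1Treg. In RNA from whole populations, fewer cells of a type and less RNA per cell cannot be told apart.

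**Figure D1:**
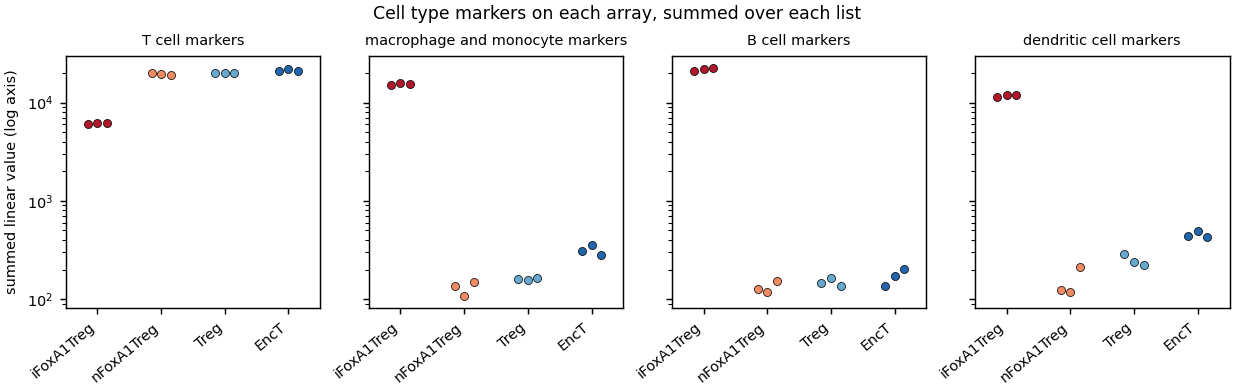
Summed linear values (log axis) of T cell, macrophage and monocyte, B cell and dendritic cell markers, 1 point per array, by group. The arrays labelled iFoxA1Treg have high sums for the 3 lists of other cell types and low sums for T cell markers. Among the other groups EncT has the highest macrophage and dendritic sums. The dendritic list includes H2-Aa, H2-Ab1 and Cd74, which are not limited to dendritic cells. Its member Itgax averaged below the filter level of 4.05 on the arrays labelled iFoxA1Treg.

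The promoter windows of the 3 members that hold a GAS are printed here, because interferon gamma signals to its target genes through this element. Each window runs from 250 bases before to 50 bases after a RefSeq transcript start in GRCm38.p6, 5′ to 3′ on the strand of the gene, with motif matches in capitals. Motifs were searched on both strands as TTCNNNGAA for the GAS, GAAANNGAA for an ISRE-type element and GGNNNTTCC for an NF-kappaB-type element. The Irf1 window (chr11:53769764-53770063, plus strand) holds a GAS at position -90. The Irf2 window (chr8:46739495-46739794, plus strand) holds an ISRE-type match at -241, a GAS at -224 and an NF-kappaB-type match at -16. The Irf8 window (chr8:120736108-120736407, plus strand) holds a GAS at -171 and another at -153.
Irf1: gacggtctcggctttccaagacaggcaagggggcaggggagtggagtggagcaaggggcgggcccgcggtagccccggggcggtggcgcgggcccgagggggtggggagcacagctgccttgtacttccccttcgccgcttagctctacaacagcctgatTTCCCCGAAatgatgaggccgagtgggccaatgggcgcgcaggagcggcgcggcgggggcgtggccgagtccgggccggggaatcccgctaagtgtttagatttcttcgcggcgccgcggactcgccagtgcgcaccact
Irf2: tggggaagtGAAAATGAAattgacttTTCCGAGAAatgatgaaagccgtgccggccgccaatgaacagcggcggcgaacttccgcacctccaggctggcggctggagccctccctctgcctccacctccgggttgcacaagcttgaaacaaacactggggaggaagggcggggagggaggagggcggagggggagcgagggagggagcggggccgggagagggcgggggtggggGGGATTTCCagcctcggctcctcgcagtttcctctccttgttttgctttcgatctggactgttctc
Irf8: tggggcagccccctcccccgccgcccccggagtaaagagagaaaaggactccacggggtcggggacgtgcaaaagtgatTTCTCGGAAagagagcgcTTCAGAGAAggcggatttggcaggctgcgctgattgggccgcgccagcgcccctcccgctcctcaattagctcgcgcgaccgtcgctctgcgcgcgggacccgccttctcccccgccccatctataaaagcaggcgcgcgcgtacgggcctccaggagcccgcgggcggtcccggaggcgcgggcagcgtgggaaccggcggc

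All 8 members had a window in the RefSeq table, 11 in total, and 4 windows held any match. The 3 printed windows were joined by an Irf3 window, which held an NF-kappaB-type match at -228. The windows of Irf4, Irf5, Irf7 and Irf9 held none of these letters. Over all 32851 windows, 8.3% held the GAS, 8.56% the ISRE-type and 18.5% the NF-kappaB-type motif, and a match is a description of the letters only.

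The first comparisons ask how the 2 regulatory populations differ from encephalitogenic T cells. In nFoxA1Treg relative to EncT, 5 of the 8 genes were lower by their brightest probe set, 0 were higher and 3 did not pass the test. These 5 were Irf1, Irf2, Irf3, Irf5 and Irf9, and the changes were modest, between -0.65 and -0.30 on the log2 scale. In Treg relative to EncT, 4 genes were lower, namely Irf1, Irf2, Irf7 and Irf9, 0 were higher and 4 did not pass. Irf4 passed in neither comparison. Tests were made with limma on log2 probe set values, with 1 mean per group over all 12 arrays and Benjamini-Hochberg adjustment over all 27022 probe sets at a threshold of 0.05.

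Among the 14 probe sets in nFoxA1Treg relative to EncT, 0 were higher and 6 lower, where 8.38% of all probe sets were higher and 8.67% lower. Their median change was -0.36, beside 0.011 for all probe sets. By the brightest probe set of each gene, 7.77% of 12609 genes were higher and 10.3% lower. In Treg relative to EncT, 0 of the 14 were higher and 5 lower, with a median of -0.27, where 6.35% of all probe sets were higher and 7.69% lower. By gene the shares were 5.42% higher and 9.29% lower. Both comparisons use the same 3 EncT arrays. With array weights the count in nFoxA1Treg was 11 of 14 (1 higher and 10 lower), where 9981 of all 27022 probe sets were called. Without the arrays labelled iFoxA1Treg the counts were 6 in nFoxA1Treg and 4 in Treg.

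**Figure D2:**
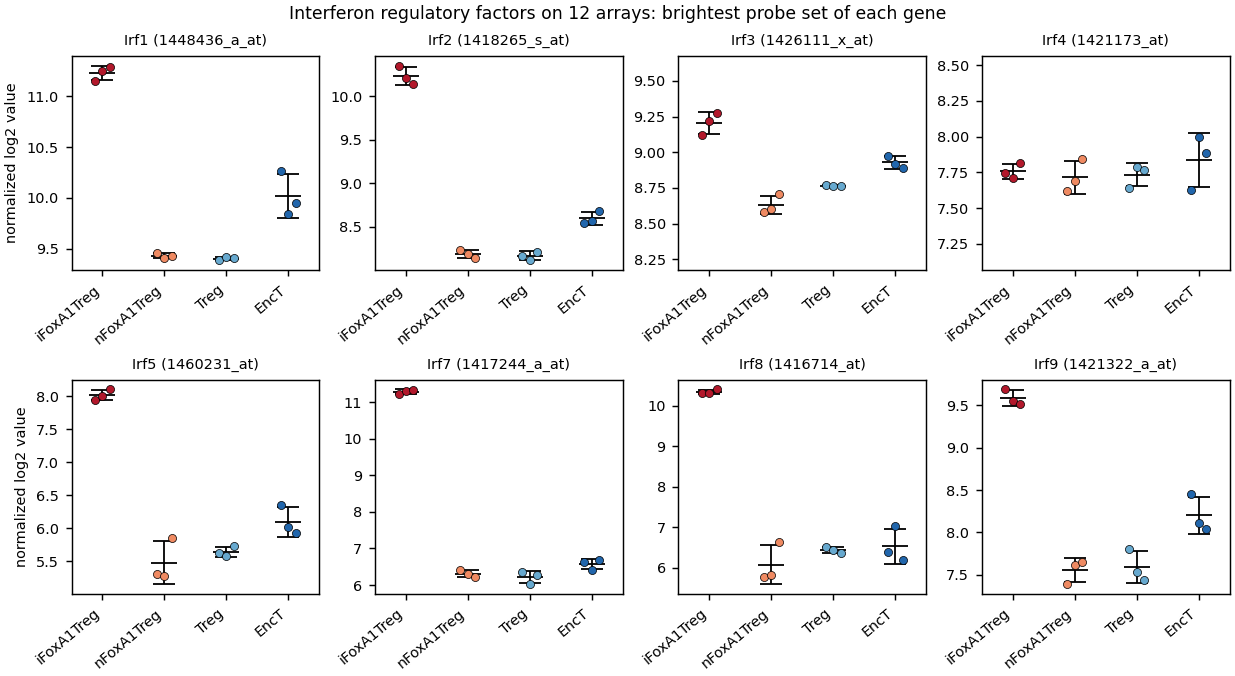
Normalized log2 value of the brightest probe set of each of the 8 genes on every array, by group (points: arrays; horizontal line and bars: mean and SD, n = 3). The nFoxA1Treg and Treg arrays lie below all EncT arrays for Irf1, Irf2, Irf3, Irf5, Irf7 and Irf9, and Irf4 overlaps across all groups. The share of all probe sets that lie apart in this way was not counted, so this is a description only. Each panel has its own axis.

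Irf1, which interferon gamma induces and whose product drives antigen-processing genes, was lower in both regulatory groups than in EncT. Its probe set 1448436_a_at read 9.45, 9.41 and 9.43 in nFoxA1Treg and 9.38, 9.41 and 9.41 in Treg, against 10.26, 9.84 and 9.95 in EncT (normalized log2, as are all values below). Every array of both regulatory groups lay below every EncT array, and EncT replicate 1 was the highest. Irf1 fell by 0.59 in nFoxA1Treg relative to EncT (SE 0.082, 1.51-fold, limma adjusted p = 0.000616) and by 0.62 in Treg (SE 0.082, 1.53-fold, limma adjusted p = 0.000647). Without EncT replicate 1 the change was -0.47 in nFoxA1Treg and -0.50 in Treg, and both still passed the test.

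Irf2, the competitor of IRF1 at the same sites, was lower in the same groups. Its probe set 1418265_s_at read 8.23, 8.18 and 8.14 in nFoxA1Treg and 8.17, 8.11 and 8.22 in Treg, against 8.55, 8.57 and 8.68 in EncT, with no overlap between the regulatory groups and EncT. Irf2 fell by 0.41 in nFoxA1Treg (SE 0.064, 1.33-fold, limma adjusted p = 0.00119) and by 0.43 in Treg (SE 0.064, 1.35-fold, limma adjusted p = 0.00114). The suffix of this probe set marks probes that can match transcripts of more than one gene.

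Irf9, the DNA-binding part of the complex that type I interferon activates, was also lower in both regulatory groups. It read 7.39, 7.62 and 7.66 in nFoxA1Treg and 7.80, 7.53 and 7.44 in Treg, against 8.45, 8.11 and 8.04 in EncT. The regulatory groups overlapped each other and lay below EncT. Irf9 fell by 0.65 in nFoxA1Treg (SE 0.12, 1.56-fold, limma adjusted p = 0.00312) and by 0.61 in Treg (SE 0.12, 1.52-fold, limma adjusted p = 0.00559). Irf1, Irf2 and Irf9 passed the test in both comparisons under all 16 alternative settings.

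Among the factors that act after sensing, Irf3, which is present in most cells before any stimulus, had 4 probe sets that did not behave alike. The brightest, 1426111_x_at, read 8.58, 8.60 and 8.71 in nFoxA1Treg and 8.77, 8.76 and 8.77 in Treg, against 8.97, 8.92 and 8.89 in EncT. It fell by 0.30 in nFoxA1Treg (SE 0.056, limma adjusted p = 0.00334), while the change in Treg, -0.16 (95% interval -0.28 to -0.042, adjusted p = 0.0708), did not pass. In Treg it passed on the values as deposited (limma adjusted p = 0.0447) and with array weights (0.0207). The groups did not overlap in either comparison, but the share of all probe sets that lie apart in this way was not counted. Its suffix marks probes that can match unrelated transcripts.

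The dimmest Irf3 probe set, 1435271_at, read 4.43, 3.38 and 4.17 in nFoxA1Treg and 3.96, 3.74 and 4.09 in Treg, against 6.10, 5.44 and 5.26 in EncT. Its means of 3.99 in nFoxA1Treg and 3.93 in Treg lay below the filter level of 4.05, and it passed the filter through EncT (5.60) and the arrays labelled iFoxA1Treg (4.85). Its differences from EncT are therefore no independent support, although it is 1 of the 6 probe sets called in nFoxA1Treg and 1 of the 5 in Treg. The fitted change was -1.61 in nFoxA1Treg and -1.67 in Treg, and with 16 added before the logarithm, which damps dim probe sets, -1.01 and -1.05. The remaining probe sets, 1416898_a_at and 1438721_a_at, changed by -0.25 and -0.12 in nFoxA1Treg and by -0.12 and -0.29 in Treg, and none of these passed.

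Irf5, which acts downstream of Toll-like receptors in myeloid and B cells, read 5.30, 5.29 and 5.86 in nFoxA1Treg and 5.63, 5.58 and 5.73 in Treg, against 6.35, 6.02 and 5.92 in EncT at 1460231_at. Replicate 3 of nFoxA1Treg was close to the lowest EncT array. The change was -0.62 in nFoxA1Treg (SE 0.15, limma adjusted p = 0.0163) and -0.45 in Treg (95% interval -0.79 to -0.12, adjusted p = 0.0673, not passed). In Treg it passed on the values as deposited (limma adjusted p = 0.0458) and with array weights (0.0414). The call in nFoxA1Treg was lost without EncT replicate 1 (adjusted p = 0.0622), without nFoxA1Treg replicate 1 (0.0707) or 2 (0.0720), and in a fit of these 2 groups only (0.0747). The second Irf5 probe set, 1449678_at, pointed the other way in nFoxA1Treg (0.29, limma adjusted p = 0.333) without passing. There all nFoxA1Treg arrays lay above all EncT arrays, although nFoxA1Treg replicate 3 and EncT replicate 2 were nearly equal.

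Irf7, itself an interferon-induced gene and the main amplifier of type I interferon, passed the test in Treg and not in nFoxA1Treg. It read 6.41, 6.31 and 6.21 in nFoxA1Treg and 6.35, 6.03 and 6.28 in Treg, against 6.64, 6.42 and 6.68 in EncT. Neither regulatory group overlapped EncT, although nFoxA1Treg replicate 1 and EncT replicate 2 were nearly equal. The change was -0.36 in Treg (SE 0.099, 1.28-fold, limma adjusted p = 0.0298) and -0.27 in nFoxA1Treg (95% interval -0.48 to -0.053, adjusted p = 0.0844, not passed). The call in Treg was lost under 7 of 16 alternative settings, among them leaving out the arrays labelled iFoxA1Treg (adjusted p = 0.0700), EncT replicate 1 (0.0776), EncT replicate 3, Treg replicate 2 (0.126) or Treg replicate 3 (0.0599).

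Of the lineage factors, Irf4, which T cells induce through their receptor, did not pass the test in any of the 6 comparisons as fitted. At 1421173_at it read 7.62, 7.69 and 7.84 in nFoxA1Treg and 7.64, 7.79 and 7.77 in Treg, against 7.63, 7.999 and 7.89 in EncT, and all groups overlapped. The change was -0.12 in nFoxA1Treg (95% interval -0.33 to 0.084) and -0.11 in Treg (-0.31 to 0.099). The second probe set, 1421174_at, changed by 0.22 in nFoxA1Treg (-0.080 to 0.52) and by 0.28 in Treg (-0.020 to 0.58), also without passing. At this probe set all Treg arrays lay above all EncT arrays. With array weights, the change of 1421173_at in nFoxA1Treg was -0.19 and passed (limma adjusted p = 0.0191).

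Irf8, the myeloid and B cell member, also did not pass in these comparisons, and here single arrays were spread widely. At 1416714_at it read 5.78, 5.83 and 6.64 in nFoxA1Treg and 6.52, 6.44 and 6.37 in Treg, against 6.39, 7.02 and 6.19 in EncT. The high values were nFoxA1Treg replicate 3 and EncT replicate 2. These same arrays held the highest sum of 8 dendritic cell markers in their groups, 212 for nFoxA1Treg replicate 3 against 125 and 117 for replicates 1 and 2, and 489 for EncT replicate 2 against 434 and 427. This marker list includes H2-Aa, H2-Ab1 and Cd74, which are not limited to dendritic cells. The part of other cells in the Irf8 values was not tested.

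The Irf8 change was -0.45 in nFoxA1Treg (95% interval -0.93 to 0.021, adjusted p = 0.189) and -0.088 in Treg (-0.56 to 0.39). The change in Treg was 0.15 without EncT replicate 2 and 0.19 with array weights, and passed under neither. Without nFoxA1Treg replicate 3 the change in nFoxA1Treg was -0.73 and passed (limma adjusted p = 0.0192). At the second probe set, 1448452_at, the values were 5.32, 5.70 and 6.01 in nFoxA1Treg and 5.90, 5.86 and 5.92 in Treg, against 6.09, 6.47 and 5.92 in EncT, with a change of -0.48 in nFoxA1Treg (95% interval -0.83 to -0.14, adjusted p = 0.0553). That change passed under 6 of 16 alternative settings.

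Some markers of other cell types were also called lower in these comparisons. None of the 4 CD8 T and NK cell markers tested was called in either. Of 7 macrophage and monocyte markers tested, 4 were lower and 0 higher in nFoxA1Treg relative to EncT, and likewise 4 and 0 in Treg. Over all genes, 10.3% were lower in nFoxA1Treg and 9.29% in Treg. The macrophage markers with the smallest adjusted p were Clec7a, Lyz2 and Fcgr3. All of them averaged below the filter level of 4.05 in nFoxA1Treg, as did Lyz2 and Fcgr3 in Treg. They passed the filter through groups where they are higher, so their calls are no independent support. Of 5 dendritic cell markers tested, 3 were lower in nFoxA1Treg and 2 in Treg, with 0 higher in either. They were H2-Aa, Cd74 and H2-Ab1 in nFoxA1Treg, and H2-Aa and Cd74 in Treg. These are genes of MHC class II and its invariant chain and are not limited to dendritic cells. H2-Aa and H2-Ab1 averaged below the filter level in nFoxA1Treg, and Flt3 and Siglech did so in nFoxA1Treg, Treg and EncT. Of 6 B cell markers tested, 2 were lower in nFoxA1Treg (median -0.62) and 0 in Treg (median -0.31). These 2 were Ms4a1 and Cd79b, both below the filter level in nFoxA1Treg and Treg. Cd79b lay below it in EncT too and passed the filter through the arrays labelled iFoxA1Treg. Of 10 T cell markers 2 were lower in each comparison, again with 0 higher. The summed dendritic markers ran from 117 to 212 in nFoxA1Treg and 224 to 287 in Treg, against 427 to 489 in EncT. In nFoxA1Treg the mean of Mpeg1, Cd79b and Siglech lay below 0 on the log2 scale, as did that of Mpeg1 in Treg and of Siglech in EncT. Their part in the IRF differences was not tested.

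**Figure D3:**
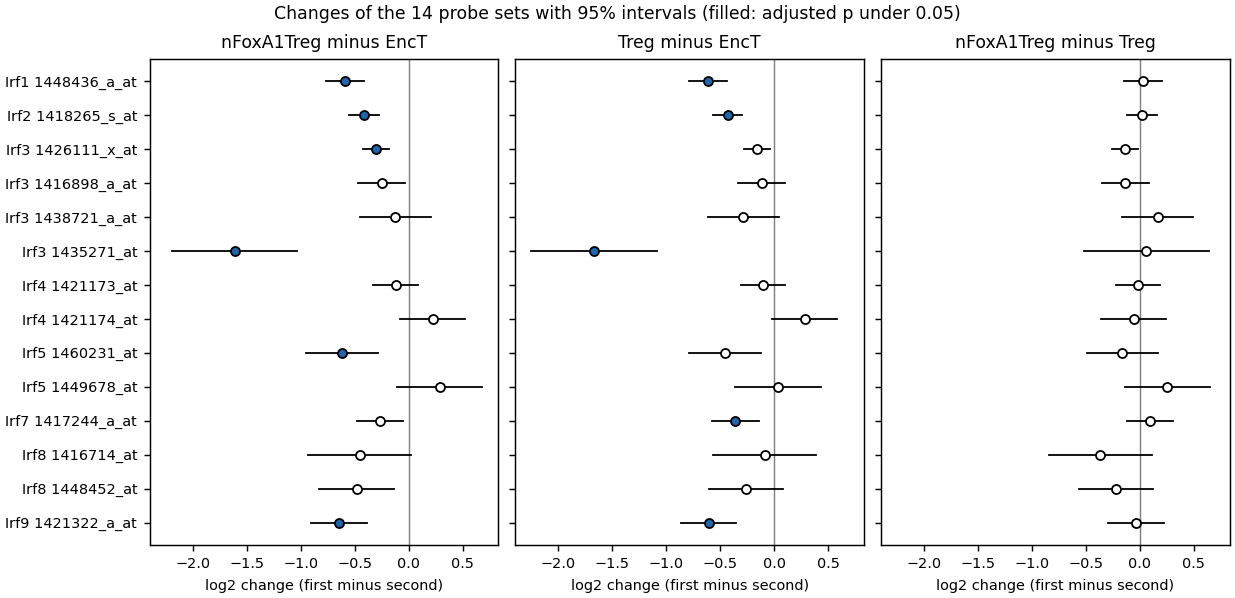
Log2 change (horizontal axis) of each of the 14 probe sets in nFoxA1Treg minus EncT, Treg minus EncT and nFoxA1Treg minus Treg; points are changes, lines 95% intervals, and filled points passed the test. The called points lie left of 0 in both comparisons with EncT (6 and 5 of 14), and none is called between nFoxA1Treg and Treg.

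The comparison of nFoxA1Treg with Treg asks what sets the FoxA1-labelled population apart from other regulatory cells. No IRF probe set passed, 0 of 14, where 0% of all probe sets were higher and 0.0074% lower. By limma the called probe sets were those of Cxcl1 (-4.15) and Ttr (-5.35), while 933 of 27022 had an unadjusted p under 0.05. By brightest probe set the 95% intervals were narrowest for Irf3 (-0.26 to -0.016), Irf2 (-0.12 to 0.16) and Irf1 (-0.15 to 0.20). Those of Irf4 (-0.22 to 0.19), Irf7 (-0.12 to 0.31) and Irf9 (-0.29 to 0.22) came next. They were wider for Irf5 (-0.49 to 0.17) and Irf8 (-0.84 to 0.11). Irf3 at 1426111_x_at was 0.14 lower in nFoxA1Treg, and its interval of -0.26 to -0.016 has an unadjusted limma p of 0.0295 and an adjusted p of 0.9995. Of the 14 probe sets, 2 did not overlap between these groups. They were 1426111_x_at and 1449678_at of Irf5, which was 0.25 higher in nFoxA1Treg. The share of all probe sets without overlap was not counted.

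The arrays labelled iFoxA1Treg, from cells that the label says were induced with IFN-beta, had the highest level of 7 of the 8 genes. By brightest probe set 7 genes were higher, 0 lower and 1, Irf4, not called, against each of the other 3 groups. Irf7 and Irf8 rose the most. Because B cell and macrophage markers were also high on these arrays and T cell markers low, treatment, cell type and sex cannot be told apart here.

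Of the 14 probe sets, 11 were higher and 1 lower against nFoxA1Treg, where 30.9% of all probe sets were higher and 41.3% lower. Against Treg, 11 were higher and 0 lower, where the shares were 31.2% and 40.5%. Against EncT, 9 were higher and 1 lower, where they were 30.5% and 39.7%. By gene, 33.7% of 12609 genes were higher and 38% lower against EncT. The split against EncT depended on scaling: 8253 probe sets were higher and 10726 lower after quantile normalization, against 6208 and 12670 on the values as deposited, where the median of all probe sets moved to -0.23, against -0.074. Over the 14 IRF probe sets the deposited values gave 8 higher and 3 lower.

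Irf7 and Irf8 showed the widest gaps. Irf7 read 11.21, 11.30 and 11.34 on the arrays labelled iFoxA1Treg, with no array of another group above 6.68. The change was 4.97 against nFoxA1Treg (SE 0.099, 31.4-fold), 5.07 against Treg (33.5-fold) and 4.71 against EncT (26.1-fold, limma adjusted p = 2.83e-13). Irf8 read 10.31, 10.33 and 10.41 at 1416714_at and 10.46, 10.53 and 10.55 at 1448452_at. The change at 1416714_at was 4.27 against nFoxA1Treg (SE 0.22), 3.90 against Treg and 3.81 against EncT. At 1448452_at it was 4.84 against nFoxA1Treg (SE 0.16), 4.62 against Treg and 4.36 against EncT. The IRF8 partner PU.1, encoded by Spi1, and its relative Spib were higher too, by 2.47 and 6.54 against EncT.

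The interferon-signalling members rose less. Irf1 read 11.16, 11.25 and 11.29 on these arrays and was higher by 1.80 against nFoxA1Treg (SE 0.082), 1.83 against Treg and 1.21 against EncT. Irf2 read 10.35, 10.22 and 10.15 and was higher by 2.05 against nFoxA1Treg (SE 0.064), 2.07 against Treg and 1.64 against EncT. Irf9 read 9.69, 9.55 and 9.51 and was higher by 2.03 against nFoxA1Treg (SE 0.12), 1.99 against Treg and 1.38 against EncT. For all 3 genes the order of levels was iFoxA1Treg, then EncT, then nFoxA1Treg and Treg, of which the last 2 did not differ beyond their spread.

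Irf5 at 1460231_at read 7.94, 8.01 and 8.10 and was higher by 2.53 against nFoxA1Treg (SE 0.15), 2.37 against Treg and 1.92 against EncT. Its other probe set, 1449678_at, read 4.19, 4.19 and 4.77 and was lower by 0.68 against nFoxA1Treg (limma adjusted p = 0.00461), so the probe sets of this gene disagreed in direction. Irf3 at 1426111_x_at read 9.12, 9.22 and 9.28, and its changes of 0.58, 0.44 and 0.28 against nFoxA1Treg, Treg and EncT were the smallest of the 7 genes. At 1416898_a_at the changes were 0.62, 0.48 and 0.37 in the same comparisons, the last of which did not pass on the values as deposited (adjusted p = 0.155). The dim Irf3 probe set 1435271_at read 4.84, 4.76 and 4.96, above nFoxA1Treg and Treg but 0.75 below EncT (limma adjusted p = 0.0237). That call against EncT was lost with array weights, and without EncT replicate 1, iFoxA1Treg replicate 1 or iFoxA1Treg replicate 2 (adjusted p up to 0.118 over these).

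Irf4 was the exception. At 1421173_at it read 7.75, 7.71 and 7.81 on the arrays labelled iFoxA1Treg, within the range of the other groups, with a change of 0.040 against nFoxA1Treg (95% interval -0.16 to 0.25), 0.025 against Treg (-0.18 to 0.23) and -0.081 against EncT (-0.29 to 0.12). On the values as deposited the change against EncT was -0.27 and passed (limma adjusted p = 0.0159), beside a median of -0.23 for all probe sets under that scaling. The other probe set, 1421174_at, read 5.24, 5.35 and 5.39 on these arrays, against 4.74, 5.11 and 5.16 in EncT, with no overlap. It was 0.32 higher than in EncT (95% interval 0.020 to 0.62, adjusted p = 0.0540, not passed), and it passed without the intensity trend (limma adjusted p = 0.0242) and without EncT replicate 3 (0.0386).

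**Figure D4:**
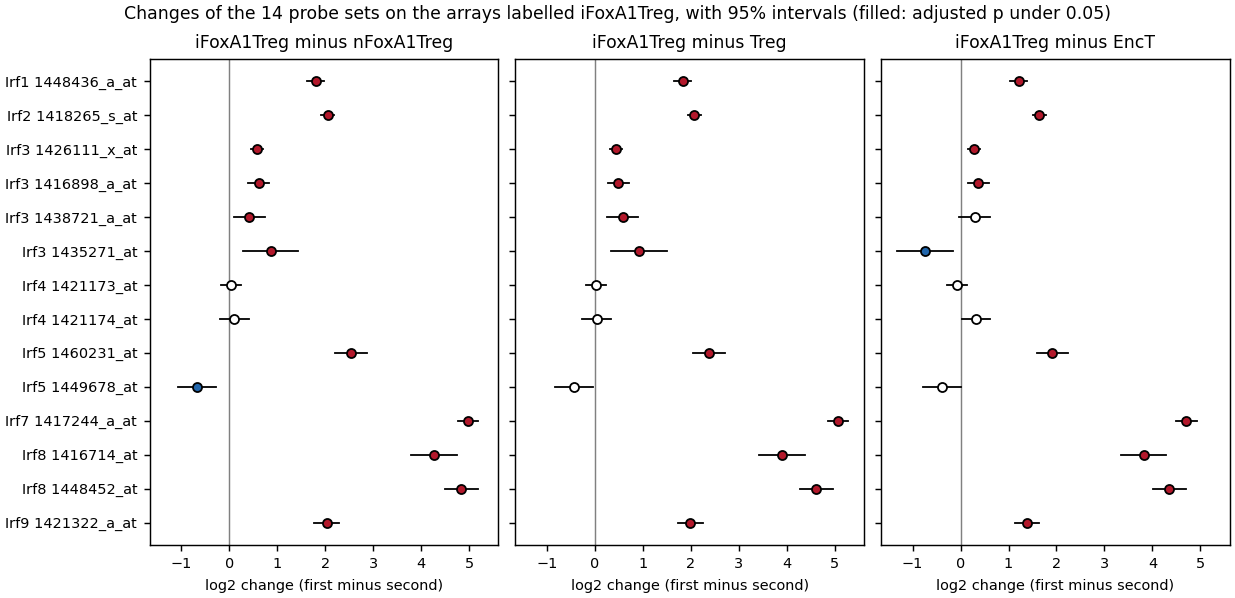
Log2 change (horizontal axis) of each of the 14 probe sets on the arrays labelled iFoxA1Treg minus nFoxA1Treg, Treg and EncT; points are changes, lines 95% intervals, and filled points passed the test. Irf7 and Irf8 lie between 3.81 and 5.07, both Irf4 probe sets stay uncalled, and the probe sets of Irf5 lie on opposite sides of 0.

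Genes around the IRFs were read by 7 lists, each gene by its brightest probe set, against the gene shares given above. Among 17 tested genes of the type I interferon response that carry ISRE elements, 0 were higher and 2 lower in nFoxA1Treg relative to EncT, with a median of -0.061, and 0 and 2 in Treg, with a median of -0.043. The median over all genes was -0.0045 in nFoxA1Treg and -0.0038 in Treg. The 2 were Parp14, an ADP-ribosyltransferase gene, which fell by 0.53 in each comparison, and Trim25, a ubiquitin ligase of the RIG-I pathway, which fell by 0.41 in nFoxA1Treg and 0.40 in Treg. Ifit1, Ifit3 and Bst2, named here after their values were seen, changed by -0.061, -0.12 and -0.084 in nFoxA1Treg without passing. With array weights 5 of the 17 were called in nFoxA1Treg and 6 in Treg. Under that setting 9981 of all 27022 probe sets were called in nFoxA1Treg and 8954 in Treg.

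On the arrays labelled iFoxA1Treg 16 of these 17 genes were higher than in EncT and 0 lower, with a median of 4.11 beside -0.024 for all genes. Oasl1, a gene of the oligoadenylate synthetase family, was higher by 7.86, Ifit2 by 4.11 and Bst2, which tethers virus particles to the cell surface, by 2.95. Adar, an RNA-editing enzyme, was the 1 gene that did not pass.

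Among 17 tested genes of the interferon gamma response and antigen processing, 1 was higher and 5 lower in nFoxA1Treg relative to EncT (median -0.041), and 1 and 4 in Treg (median -0.12). The GTPase gene Irgm2 fell by 1.27 in nFoxA1Treg and 1.12 in Treg. Socs1, a feedback inhibitor of interferon signalling, fell by 1.15 in nFoxA1Treg and 0.98 in Treg. The GTPase gene Gbp2 fell by 0.39 in nFoxA1Treg, and the chemokine gene Cxcl10 was the 1 that rose, by 1.04 in nFoxA1Treg and 2.64 in Treg. The antigen-processing genes Tap1, Psmb8 and Psmb9, chosen after their values were seen, changed by 0.074, 0.085 and 0.096 in nFoxA1Treg and did not pass. The count in nFoxA1Treg ran from 2 in a fit of these 2 groups only to 11 with array weights. Over all 27022 probe sets these settings called 2443 and 9981. On the arrays labelled iFoxA1Treg 14 were higher than in EncT and 1 was lower by 2.90, Il12rb1, a chain of the interleukin-12 receptor (list median 0.73).

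Of 7 interferon receptor and kinase genes, 0 were higher and 3 lower in nFoxA1Treg relative to EncT (median -0.20), and 0 and 1 in Treg (median -0.20). Ifngr1, a chain of the interferon gamma receptor, fell by 0.27 in nFoxA1Treg and 0.38 in Treg. Without the arrays labelled iFoxA1Treg 1 was called in each comparison. On those arrays 3 were higher and 3 lower than in EncT.

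Of 14 tested sensors, adaptors and kinases upstream of IRF3, IRF5 and IRF7, 2 were higher and 5 lower in nFoxA1Treg relative to EncT, and 1 and 5 in Treg. The adaptor gene Sting1 fell by 0.39 in nFoxA1Treg and 0.31 in Treg, and Ticam1, the adaptor of TLR3, by 0.43 and 0.53. In a fit of only the groups compared the counts were 1 in nFoxA1Treg and 2 in Treg. On the arrays labelled iFoxA1Treg 7 were higher than in EncT and 1 lower, with the RNA sensor gene Ifih1 higher by 2.42 and Sting1 lower by 1.02.

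Of 9 tested partners and binding proteins of the IRFs, 0 were higher and 2 lower in nFoxA1Treg relative to EncT, and 0 and 2 in Treg. Spi1, which encodes PU.1, fell by 0.58 in nFoxA1Treg and 0.73 in Treg, next to the lower macrophage markers given above. Without the arrays labelled iFoxA1Treg 0 were called in nFoxA1Treg and 2 in Treg. On those arrays 5 were higher and 3 lower than in EncT, with Batf3, a partner of IRF8 in dendritic cells and of IRF4 in T cells, lower by 4.18.

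Most of the genes around Irf4 were not called in the regulatory groups relative to EncT either. Of 13 tested, 2 were higher and 4 lower in nFoxA1Treg, with 7 not called and a median of -0.074. In Treg, 1 was higher and 4 lower, with 8 not called and a median of -0.049. Ctla4, an inhibitory receptor of T cells, rose by 0.86 in nFoxA1Treg and 0.66 in Treg. Bcl6, the regulator of follicular helper T cells, fell by 0.70 in nFoxA1Treg and 0.75 in Treg, and Prdm1, which encodes BLIMP1, by 0.57 and 0.63. On the arrays labelled iFoxA1Treg 5 were higher and 6 lower than in EncT, where 33.7% of all genes were higher and 38% lower.

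Of 13 tested genes linked to IRF8 in myeloid and B cells, 1 was higher and 3 lower in nFoxA1Treg relative to EncT (median -0.15), and 1 and 1 in Treg (median -0.082). Cd74, the invariant chain of MHC class II and also a dendritic cell marker here, fell by 2.17 in nFoxA1Treg and 1.04 in Treg, and Klf4, a transcription factor gene, rose by 0.76 and 0.49. Without the arrays labelled iFoxA1Treg, 3 were called in nFoxA1Treg and 0 in Treg. On those arrays 8 were higher and 2 lower than in EncT (median 1.62). None of the genes in the 7 lists passed between nFoxA1Treg and Treg.

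**Figure D5:**
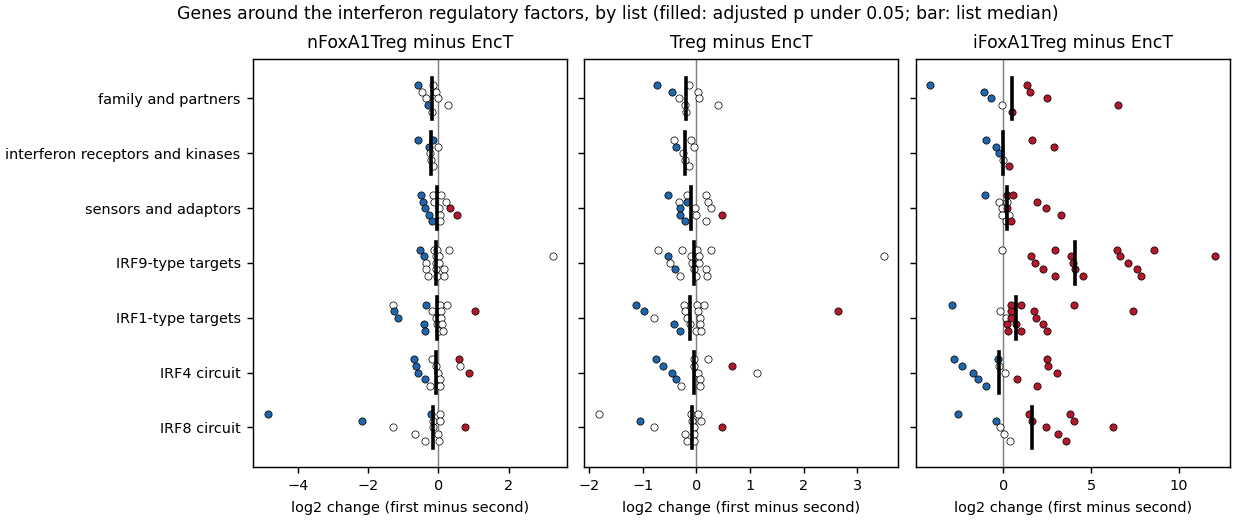
Log2 change (horizontal axis) of every tested gene of the 7 lists in nFoxA1Treg minus EncT, Treg minus EncT and iFoxA1Treg minus EncT; 1 point per gene, filled where it passed the test, with a bar at the list median. The type I interferon genes centre near 0 in the first and second panels (medians -0.061 and -0.043) and at 4.11 in the third; the panels have different axes.

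The genes most like each member in pattern were read as Pearson's r over arrays, as a description. Over all 12 arrays Irf7 was closest to Zbp1 (r = 0.999) and Ifi213 (0.999), Irf8 to Plekho1 (0.998) and Lgmn (0.997), and Irf5 to H2-Oa (0.996) and Tlr1 (0.996). Irf1 was closest to Clk4 (0.995) and AB124611 (0.995), Irf2 to Dennd6a (0.999) and Dgkd (0.997), and Irf9 to Ssh1 (0.997) and Flcn (0.996). These values rest on the gap between the arrays labelled iFoxA1Treg and the rest, since 743 to 1308 of 12608 genes had an r above 0.95 with each of these 6 members. Irf3 was closest to Zfp429 (0.984) and Dgka (0.980), with 104 such genes, and Irf4 to Igsf23 (0.870) and Gusb (0.868), with 0.

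Over the 9 arrays of nFoxA1Treg, Treg and EncT the nearest genes were others. Irf1 was closest to Sertad1 (0.995) and Fam8a1 (0.994), Irf2 to Gm3924 (0.996) and Lfng (0.986), and Irf9 to Zdhhc20 (0.988) and Fpgt (0.986). Irf7 was closest to Zswim6 (0.984) and Cyria (0.976), with 11 genes above 0.95, and Irf8 to Rgs10 (0.976) and 4930486L24Rik (0.972), with 15. Irf3 was closest to Fchsd2 (0.992) and Nat2 (0.989), Irf5 to Gpr15 (0.984) and Spop (0.982), and Irf4 to Sla2 (0.974) and Arhgef40 (0.956), the 2 genes above 0.95 with it. Arrays of 1 group share their cell source, so these points are not independent.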

How the data were processed

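The deposited values were log2 probe set values of 12 Affymetrix Mouse430_2 arrays. PLIER is named by the submitters' processing notes (its version, and whether arrays were scaled to each other, not given in the sources used here), and the log2 scale was read from the deposited values. Total RNA was extracted with Trizol and labelled by one-cycle 3' amplification, per the labels' protocols. Scanner files were not used here.

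Groups came from the labels. Members were named from the array annotation: 34945 probe sets had 1 gene, 932 several and 9160 none. The members, lists and tests were chosen with earlier results of these data known. Array medians ran from 4.64 to 4.84, so the values were quantile normalized, and the upper 60% by mean value entered the test (above 4.05). Group means were fitted to the 12 arrays in limma 3.58.1 (R 4.3.3) and moderated by eBayes with an intensity trend, with 8 residual degrees of freedom, and two-sided p-values were adjusted by Benjamini-Hochberg within each of 6 comparisons. The fit was run on simulated data with few changed probe sets in a single group. Differences as broad as those of the arrays labelled iFoxA1Treg were not simulated. A gene in a list was read by its brightest probe set with 1 gene. The members were all named, as were up to 3 genes of a list with the smallest adjusted p and, for each member, the 2 genes of highest r. Some further list genes, among them Ifit1, Ifit3, Tap1, Psmb8 and Psmb9, were named after their values were seen. List genes with no probe set of their own were not analysed here. The number of arrays limits the precision, and array data give no counting depth. Alternatives covered scaling, filter, a floor, array weights, moderation, arrays in the fit, the replicate number and each array left out. Promoter windows are RefSeq's, build GRCm38.p6, and the build of the array annotation was not used.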

Additional observations from a re-analysis of the deposited data

How the results depend on the processing

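Of the counts of IRF probe sets passing the test, 1 moved by more than 1.5 times: with array weights, 11 of 14 passed in nFoxA1Treg relative to EncT, against 6, and over all probe sets 9981 passed, against 4609 and against 2443 in a fit of these 2 groups only; the cause was not tested. Leaving out 1 array at a time gave 5 to 8 IRF probe sets in nFoxA1Treg relative to EncT, 4 to 5 in Treg relative to EncT, 0 in nFoxA1Treg relative to Treg, 9 to 11 on the arrays labelled iFoxA1Treg relative to EncT, and 11 to 12 relative to Treg and to nFoxA1Treg. With a replicate block the counts were 6, 5, 0, 10, 11 and 12, as without it. Pooled over all groups, arrays sharing a number did not deviate together (median r of -0.0074 over 18 pairs, -0.19 to 0.21, against -0.0068 over 36 other pairs). The group pairs differed. For like numbers r was 0.21, 0.13 and 0.083 between EncT and Treg, and 0.022, -0.19 and -0.18 between EncT and nFoxA1Treg. The numbers were not taken as pairs, and 6 of 12 arrays correlated best with an array of their own number. No called IRF change turned its sign under the alternatives run. Counts over the 7 lists moved by more than 1.5 times in 73 of 329 recomputed values. The number of arrays limits the precision, and 1435271_at of Irf3 averaged below the filter level in nFoxA1Treg and Treg.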
